A study of Mus musculus with 10 samples.

Results

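The genes described here are 10 genes of endotoxin recognition and NF-κB signalling in mouse: *Tlr4*, *Myd88*, *Nfkb1*, *Rela*, *Nfkbia*, *Tnfaip3*, *Ccl2*, *Cxcl1*, *Il6* and *Csf1*. They were chosen by name and not by a cut on their values, though with earlier results of these data known. Each had 1 row among the 27024 named genes of the expression table. The cells were bEnd.3, an immortalised mouse brain endothelial line of WT genotype, grown in high glucose DMEM with 10% FBS. A first group of 5 samples received saline (replicates 1 to 5). A second group of 5 samples received 5 nM StcE (replicates 1, 2, 3, 5 and 6). Each treatment lasted 16 h before bulk RNA-seq. StcE, the secreted protease of C1 esterase inhibitor, is a bacterial mucinase that cuts mucin-domain glycoproteins, and by the study's methods the recombinant protein had been passed through endotoxin removal columns and its endotoxin level tested. Neither a catalytically inactive enzyme nor endotoxin itself was given to any of the 10 samples, so the active enzyme and anything carried with it cannot be told apart here. All samples came from 1 cell line, and since the labels do not say that replicates were separate cultures, p-values measure only the spread between these samples.

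Endotoxin, the lipopolysaccharide of Gram-negative bacteria, is passed by LBP and CD14 to the receptor TLR4 bound to its co-receptor MD-2. The adaptor MyD88 then recruits IRAK kinases and TRAF6, which lead to activation of the IκB kinase complex, and the kinase marks the inhibitor IκBα for destruction. NF-κB dimers, most often p65 (from *Rela*) with p50 (from *Nfkb1*), move into the nucleus and switch on genes for adhesion molecules, chemokines and cytokines, and also for their own inhibitors, among them *Nfkbia* and *Tnfaip3*. In brain endothelial cells this response is known for raising chemokines such as CCL2 and CXCL1, the cytokine IL-6 and leukocyte adhesion molecules.

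Recovered fragments (the read pairs behind each FPKM value, fragments scaled to gene length and library size) summed to between 21859342 and 33140289 a sample. All 10 endothelial markers examined had a mean FPKM of at least 1, with summed levels of 1867.7 to 2005.3 after saline and 1816.3 to 1889.6 after StcE. At a limma adjusted p under 0.05, 1 of these 10 markers was higher (*Egfl7*, log2 fold change 0.17). Another 5 were lower, from *Esam* at -0.07 to *Tek* at -0.24. Among all 11062 genes tested 5.52% were higher and 6.41% lower at that threshold. Of 8 myeloid markers only *Cd68* reached a mean of 1, the summed list lay at 20.4 to 22.2 after saline and 18.4 to 21.6 after StcE, and *Ptprc*, *Itgam*, *Adgre1*, *Csf1r*, *C1qa* and *Aif1* were at or near 0 or had no row. Of 8 mural and fibroblast markers 2 reached a mean of 1, and neither passed the test. *Acta2* was at 3.08 FPKM after saline and 3.19 after StcE, and *Pdgfra* at 1.18 and 1.29. The summed list lay at 3.28 to 6.51 after saline and 3.99 to 6.0 after StcE, with *Rgs5*, *Cspg4*, *Dcn* and *Lum* at or near 0. Epithelial markers summed to at most 0.238 in any sample. In bulk RNA, fewer cells expressing a gene and less RNA of it per cell cannot be told apart.

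After StcE the mean level of *Tnfaip3*, an inhibitor, was 25.1% higher than after saline and that of *Tlr4*, the receptor, was 10.8% higher. The growth factor gene *Csf1* fell by 18.9% and the subunit gene *Nfkb1* fell by 9.94%. *Ccl2*, *Cxcl1*, *Nfkbia* and *Myd88* did not pass the test, and *Il6* stayed close to the lowest level that the sequencing depth could resolve. Of the 10 genes 9 passed the filter on low values (a mean of at least 1 FPKM), and of these 4 passed an adjusted p of 0.05, with 2 higher and 2 lower. Among all 11062 genes tested 11.9% passed, 5.52% higher and 6.41% lower (limma on log2(FPKM + 1), Benjamini-Hochberg adjustment over all genes tested). Values of StcE and saline samples did not overlap for 5 of the genes, *Tlr4*, *Nfkb1*, *Rela*, *Tnfaip3* and *Csf1*, against 10.7% of all genes tested (4.85% with StcE higher and 5.8% with StcE lower). Fold changes below are differences of log2(FPKM + 1), which understate the change of genes of low level, and exact p-values come from a two-sided permutation test over all arrangements of the 10 samples, whose smallest possible value is 0.00794.

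**Figure D1:**
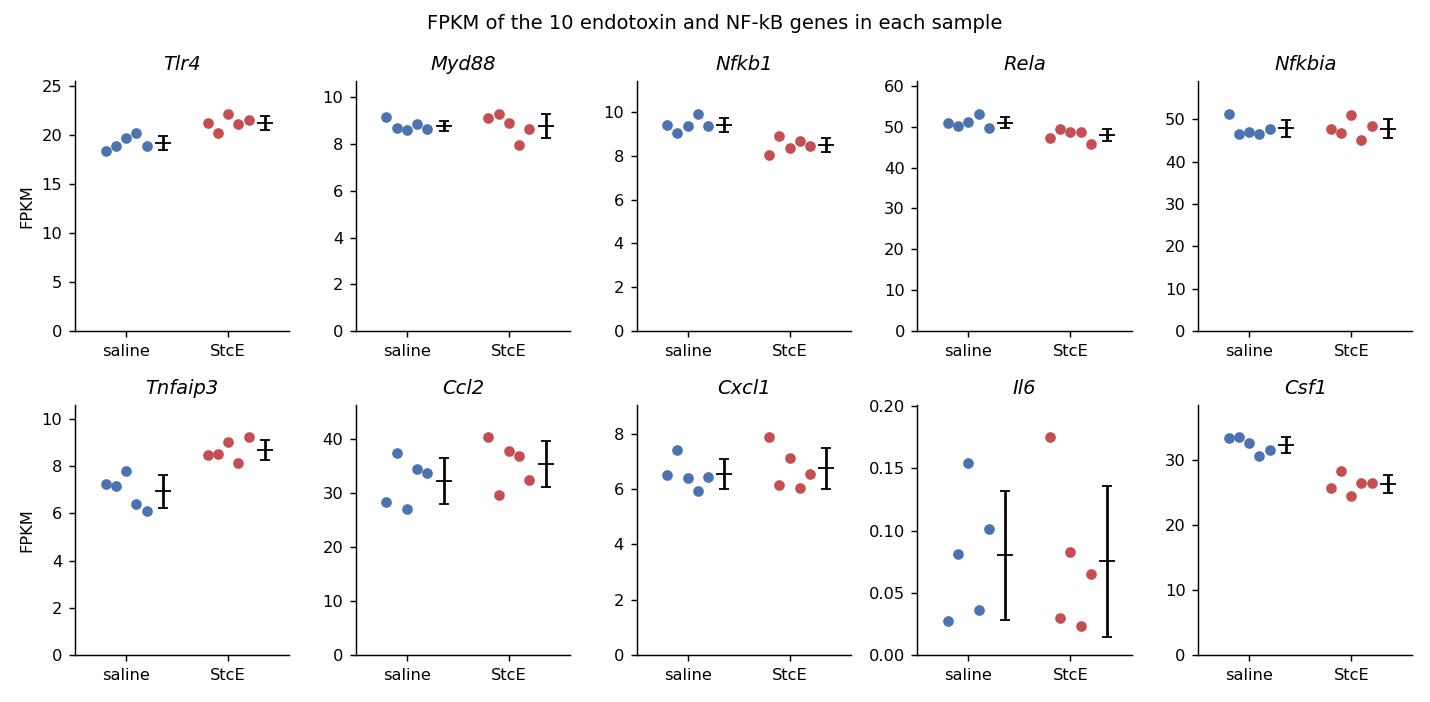
FPKM of the 10 genes in each of the 5 saline and 5 StcE samples, 1 panel a gene with its own vertical axis; points are samples, and bars give the mean ± SD (n = 5). Groups do not overlap for *Tlr4*, *Nfkb1*, *Rela*, *Tnfaip3* and *Csf1*, while *Il6* lies between 0.0235 and 0.175 FPKM throughout.

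NF-κB dimers bind short DNA elements known as κB sites. To show which of the 10 genes carry such an element beside their start, the 250 bases before each RefSeq gene start (GRCm38.p6) were searched on both strands for the κB consensus of 10 bases. A promoter was on hand for 7 of the 10 genes, and 5 of them (*Nfkbia*, *Tnfaip3*, *Cxcl1*, *Il6* and *Csf1*) held a match while *Myd88* and *Rela* did not. Matches were found in 7.25% of all 32851 promoters and in 10.5% of the 8013 tested genes that had one. The matching promoters follow, each 5′ to 3′ on the strand of its gene with the matches in capitals, because these genes are the ones in which a κB element and a measured RNA level can be set side by side. The last bases before the start of *Cxcl1* are left out because they lie in an exon of the GENCODE vM21 annotation, and for *Tnfaip3*, whose window overlaps such an exon by 110 bases, only 30 bases at each match are given.
Nfkbia, chr12:55492648-55492897: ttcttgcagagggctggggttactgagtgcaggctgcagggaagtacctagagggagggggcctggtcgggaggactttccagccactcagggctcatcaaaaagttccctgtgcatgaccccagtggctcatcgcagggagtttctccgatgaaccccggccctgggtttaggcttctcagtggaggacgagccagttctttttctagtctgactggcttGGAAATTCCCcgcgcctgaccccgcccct
Tnfaip3 distal match, chr10:19015516-19015545: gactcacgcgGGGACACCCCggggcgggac
Tnfaip3 proximal match, chr10:19015411-19015440: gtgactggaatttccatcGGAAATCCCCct
Cxcl1, chr5:90890995-90891240: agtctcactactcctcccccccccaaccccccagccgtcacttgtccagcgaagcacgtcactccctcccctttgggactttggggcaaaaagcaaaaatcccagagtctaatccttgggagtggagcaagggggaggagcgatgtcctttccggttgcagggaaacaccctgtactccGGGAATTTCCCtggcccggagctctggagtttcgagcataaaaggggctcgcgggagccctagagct
Il6, chr5:30012864-30013113: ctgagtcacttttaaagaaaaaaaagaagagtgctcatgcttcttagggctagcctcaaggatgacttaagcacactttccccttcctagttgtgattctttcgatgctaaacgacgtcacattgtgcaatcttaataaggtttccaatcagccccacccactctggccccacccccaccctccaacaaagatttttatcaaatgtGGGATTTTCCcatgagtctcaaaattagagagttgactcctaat
Csf1, chr3:107760470-107760719: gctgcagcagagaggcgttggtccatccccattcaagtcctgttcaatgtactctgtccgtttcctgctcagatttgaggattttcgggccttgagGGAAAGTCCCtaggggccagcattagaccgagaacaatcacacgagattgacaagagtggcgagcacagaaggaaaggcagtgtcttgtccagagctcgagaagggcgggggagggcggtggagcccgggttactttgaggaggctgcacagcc

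The match of *Nfkbia* began 29 bases before the start and that of *Il6* 44 bases before it. *Cxcl1* held a pair of overlapping matches on opposite strands from 71 to 61 bases before its start, and *Csf1* held 1 match beginning 154 bases before it. *Tnfaip3* held a match in its first promoter at 12 bases, and an element at 125 bases that matched on both strands, while its second promoter held none. These 5 genes did not move together: *Tnfaip3* was higher, *Csf1* was lower, *Nfkbia* and *Cxcl1* did not pass the test, and *Il6* was under the filter. Over all tested genes with a promoter, 14.4% of those with a match passed the threshold, 5.83% higher and 8.56% lower, beside 12.3% of those with none. A match describes letters in this window only, and binding was not measured.

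*Tlr4*, the receptor that recognises endotoxin (ENSMUSG00000039005.13, chromosome 4, 66827584 to 66930284, plus strand, GRCm38), was read at 18.3, 18.9, 19.6, 20.1 and 18.8 FPKM in saline replicates 1 to 5 and at 21.2, 20.2, 22.2, 21.1 and 21.5 FPKM in StcE replicates 1, 2, 3, 5 and 6. Every StcE sample was above every saline sample, although StcE replicate 2 lay just over saline replicate 4. The means were 19.2 ± 0.720 and 21.2 ± 0.712 FPKM (SD, n = 5), a log2 fold change of 0.14 (SE 0.0314, 95% interval 0.0728 to 0.210) with a limma adjusted p of 0.0149 and an exact p of 0.00794. The call held in 21 of 23 alternatives and the direction in 23, and 1 of the losses came with scaling of the samples to the same FPKM total (log2 fold change 0.13, limma adjusted p = 0.125).

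Of the genes whose products bind endotoxin beside the receptor, *Ly96* and *Lbp* did not pass the test, and *Cd14* was under the filter and not tested with limma. *Ly96*, which encodes the endotoxin-binding co-receptor MD-2, was at 3.87 ± 0.349 FPKM after saline and 4.05 ± 0.708 after StcE (log2 fold change 0.04, 95% interval -0.148 to 0.235, limma adjusted p = 0.789). On this per-length scale *Tlr4* stood 4.97-fold above *Ly96* after saline and 5.31-fold above it after StcE, and the log2 ratio differed by 0.096 between groups (exact p = 0.50). *Cd14*, which hands endotoxin to the receptor and is a defining gene of myeloid cells, was under the filter. Its level was 0.289 ± 0.0784 FPKM after saline and 0.278 ± 0.139 after StcE (exact p = 0.857). Its values did not come out as whole fragments in every sample, so no fragment count is given. *Lbp*, the serum protein that binds endotoxin, was at 1.06 ± 0.201 and 1.09 ± 0.158 FPKM (limma adjusted p = 0.891). RNA of the receptor was well covered, with at least 2545 fragments a sample, while *Cd14* never reached 0.46 FPKM.

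Of the chaperones that bring Toll-like receptors to the cell surface, *Cnpy3* fell from 21.1 ± 0.379 to 18.7 ± 1.04 FPKM (log2 fold change -0.17, SE 0.0347, limma adjusted p = 0.00951) with no overlap between groups and with its call kept in 22 of 23 alternatives, whereas *Hsp90b1* was at 210.9 ± 3.22 and 207.1 ± 5.42 FPKM (limma adjusted p = 0.490). *Tlr2*, the receptor for bacterial lipoproteins, was at 6.09 ± 0.287 and 5.59 ± 0.273 FPKM, without overlap (exact p = 0.00794) but short of the threshold over all genes (log2 fold change -0.11, limma adjusted p = 0.10). Of the 7 recognition genes, 6 were tested, 1 was higher, 1 was lower and 4 did not pass, with a median log2 fold change of -0.0025 beside -6.6e-04 over all genes tested.

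**Figure D2:**
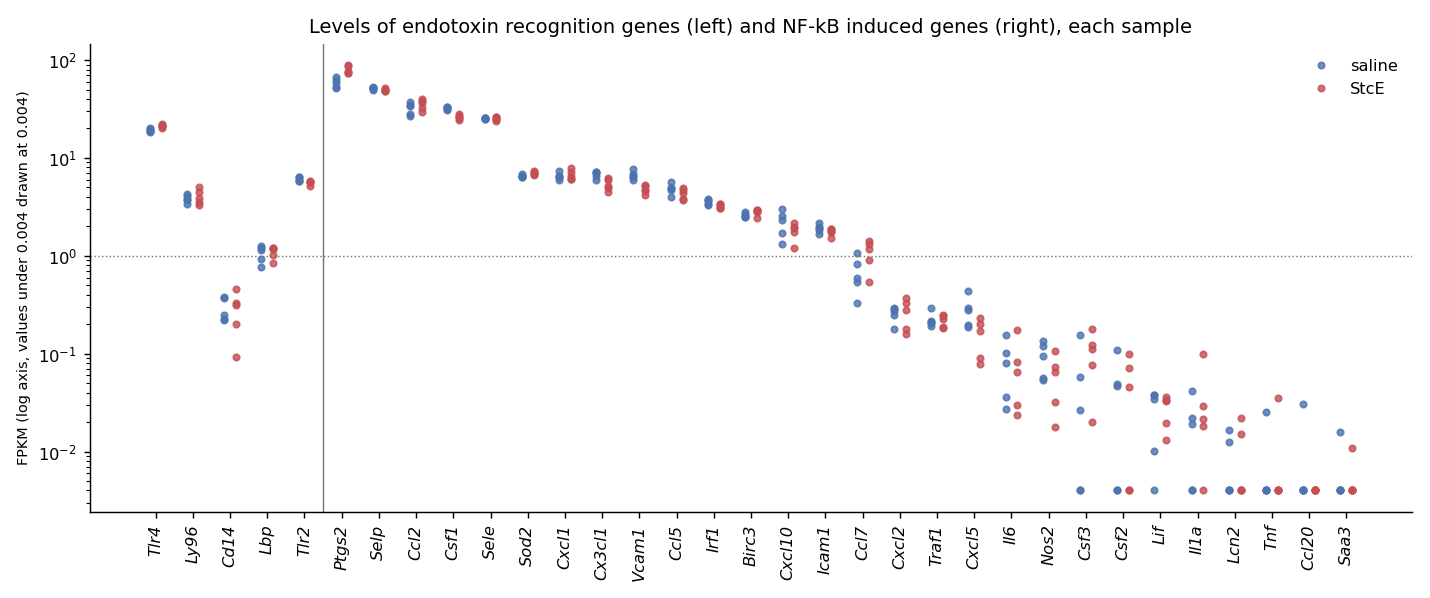
FPKM of 5 endotoxin recognition genes (left of the vertical line) and of the induced genes ordered by mean level (right), on a log axis, with 1 point for each of the 5 saline and 5 StcE samples; the dotted line marks 1 FPKM, and values under 0.004 are drawn at 0.004. *Tlr4* lies between 18.3 and 22.2 FPKM while *Cd14* stays under 0.46, and the induced genes run from *Ptgs2*, at 51.5 to 88.5 FPKM, down to genes with almost no fragments.

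*Myd88*, the adaptor that most Toll-like receptors share (ENSMUSG00000032508.8, chromosome 9, 119335934 to 119341411, minus strand), was at 9.14, 8.66, 8.58, 8.85 and 8.63 FPKM in the saline samples and at 9.11, 9.30, 8.90, 7.97 and 8.63 FPKM in the StcE samples. The groups overlapped fully, with the highest and the lowest value both in StcE samples. Their means of 8.77 ± 0.229 and 8.78 ± 0.517 FPKM gave a 95% interval of -0.0822 to 0.0820 for the log2 fold change (limma adjusted p = 0.999, exact p = 1). An opposite-strand neighbour, *Acaa1a*, overlaps 11.3% of its exon length, and the strand setting of the counting is not given in the sources used here.

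Of 12 adaptors and kinases between the receptor and IκB kinase, 11 were tested and none passed the threshold, and of 5 genes of the IκB kinase complex and its relatives, 4 were tested and none passed. Without adjustment, at a limma p under 0.05, 2 of the first list (*Irak2* and *Traf6*) and 1 of the second (*Ikbkg*) were lower and none was higher, and voom on the recovered fragments called none of either list. The unadjusted cut is looser than the adjusted one, which 11.9% of all genes tested passed, and its share over all genes was not computed. The most highly expressed gene of the first list, *Tab2*, a bridging subunit of the TAK1 kinase complex, was at 26.5 and 26.2 FPKM (limma adjusted p = 0.748), and that of the second, *Tbk1*, the kinase of the interferon branch, was at 16.3 and 17.0 FPKM (limma adjusted p = 0.248). The median log2 fold changes were -0.0128 and 0.0443.

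Both subunits of the most common NF-κB dimer were lower in every StcE sample than in any saline sample, by a small amount. *Nfkb1*, the gene of the p50 precursor (ENSMUSG00000028163.17, chromosome 3, 135584655 to 135691547, minus strand), was at 9.40, 9.03, 9.37, 9.92 and 9.35 FPKM after saline and at 8.04, 8.91, 8.34, 8.67 and 8.43 FPKM after StcE. Saline replicate 2 and StcE replicate 2 were separated by the narrowest gap, and the groups did not overlap. The mean was 9.41 ± 0.319 FPKM after saline and 8.48 ± 0.329 after StcE, which is -0.14 on the log2 scale (SE 0.0320, 95% interval -0.206 to -0.0658) with a limma adjusted p of 0.0196. The call held in 20 of 23 alternatives. It was lost, among others, when StcE replicate 3 was left out (-0.13, limma adjusted p = 0.0512), and when saline replicate 4 and StcE replicate 6 were (-0.12, limma adjusted p = 0.0721), with the direction kept in 23 of 23 alternatives.

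*Rela*, the gene of p65 and the one with the highest saline mean of the 10 (ENSMUSG00000024927.8, chromosome 19, 5637483 to 5648130, plus strand), was at 50.9, 50.1, 51.0, 53.2 and 49.8 FPKM after saline and at 47.3, 49.5, 48.6, 48.7 and 45.8 FPKM after StcE. The highest StcE sample lay just under the lowest saline sample. Means of 51.0 ± 1.34 and 48.0 ± 1.46 FPKM gave a log2 fold change of -0.09 (SE 0.0268, 95% interval -0.145 to -0.0274), for which the exact p was 0.00794 and the limma adjusted p over all genes was 0.0596. It passed the threshold only with StcE replicate 2 left out (-0.10, limma adjusted p = 0.0479) among the 23 alternatives. The other 3 subunits did not pass: *Nfkb2* was at 24.6 and 23.9 FPKM, *Relb* at 4.15 and 4.12, and *Rel* at 1.6 and 1.69. For the 5 subunits the median log2 fold change was -0.0413.

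**Figure D3:**
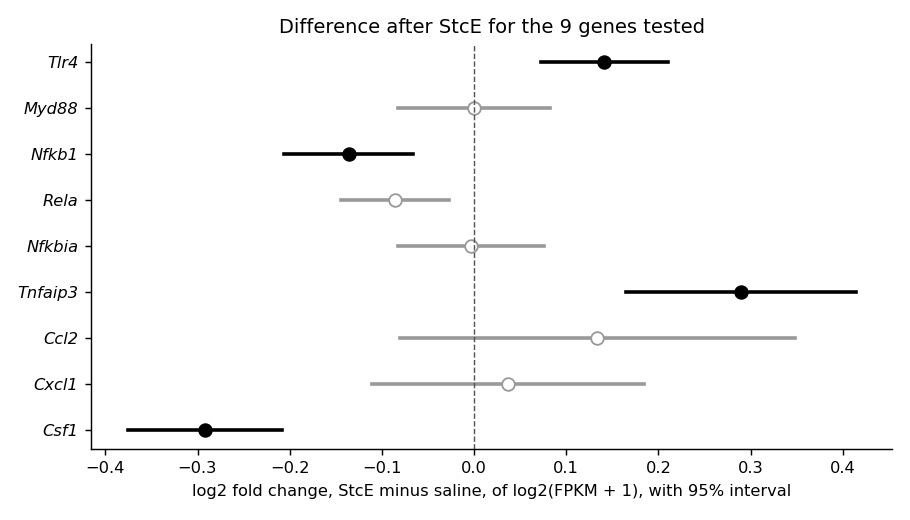
Log2 fold change of StcE against saline, as a difference of log2(FPKM + 1), with its 95% interval from limma for the 9 genes past the filter; filled points have an adjusted p under 0.05. *Tnfaip3* at 0.29 and *Csf1* at -0.29 lie farthest from 0, and the intervals of *Myd88*, *Nfkbia*, *Ccl2* and *Cxcl1* include 0.

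The main feedback inhibitors of the pathway differed from each other. *Nfkbia*, the gene of IκBα (ENSMUSG00000021025.8, chromosome 12, 55489410 to 55492647, minus strand), was at 51.3, 46.6, 47.0, 46.6 and 47.7 FPKM after saline and at 47.6, 46.7, 51.0, 45.0 and 48.3 FPKM after StcE. Saline replicate 1 and StcE replicate 3 stood high in otherwise overlapping groups. The means were 47.8 ± 1.99 and 47.7 ± 2.19 FPKM, with a 95% interval of -0.0826 to 0.0755 for the log2 fold change (limma adjusted p = 0.967, exact p = 0.905).

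*Tnfaip3*, the gene of the ubiquitin-editing enzyme A20 that shuts off signalling below Toll-like and TNF receptors (ENSMUSG00000019850.11, chromosome 10, 19000910 to 19015657, minus strand), was at 7.23, 7.18, 7.81, 6.39 and 6.09 FPKM after saline and at 8.47, 8.53, 9.03, 8.16 and 9.22 FPKM after StcE. Every StcE sample was above the highest saline sample, and saline replicates 4 and 5 were the lowest of all. With means of 6.94 ± 0.693 FPKM after saline and 8.68 ± 0.434 after StcE, *Tnfaip3* rose by 0.29 on the log2 scale (SE 0.0570, 95% interval 0.165 to 0.414) with a limma adjusted p of 0.00776, and the call held under 23 of 23 alternatives.

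Other inhibitors moved in both directions. *Zc3h12a*, an RNase that degrades cytokine mRNAs, rose from 1.35 ± 0.121 to 1.72 ± 0.173 FPKM (log2 fold change 0.21, SE 0.0563, limma adjusted p = 0.0355), though its call held in 13 of 23 alternatives. *Tnip1*, a partner of A20, fell from 12.6 ± 0.174 to 11.2 ± 0.730 FPKM (-0.16, SE 0.0384, limma adjusted p = 0.0215), and *Cyld*, a deubiquitinase, fell from 11.6 ± 0.156 to 10.6 ± 0.216 FPKM (-0.11, SE 0.0228, limma adjusted p = 0.00853). Their calls held in 20 and 22 of 23 alternatives. *Nfkbiz*, the gene of a nuclear IκB protein, named after its values were seen, was at 3.01 ± 0.292 and 3.62 ± 0.365 FPKM with 4 of 5 StcE samples above every saline sample, short of the threshold (0.20, SE 0.0650, limma adjusted p = 0.0635) but past it with voom. Of 16 IκB proteins and feedback inhibitors 14 were tested, 2 were higher, 2 were lower and 10 did not pass, with a median of -0.0089. The 2 under the filter differed in opposite directions. *Nfkbid* was at 0.815 ± 0.131 FPKM after saline and 1.04 ± 0.110 after StcE (245 and 355 fragments, exact p = 0.0159). *Irak3* was at 0.423 ± 0.0855 and 0.323 ± 0.0271 FPKM (201 and 173 fragments, exact p = 0.0397). At an unadjusted limma p under 0.05, 5 were higher and 2 lower. The share of all genes past this cut was not computed, so whether the list differs from other genes there was not tested. Voom on the recovered fragments called 3 higher and 2 lower, beside 767 higher and 796 lower of the 10998 genes it tested.

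Of the 4 secreted products among the 10 genes, *Csf1* fell, *Ccl2* and *Cxcl1* did not pass the test, and *Il6* was barely detected. *Ccl2*, the chemokine that draws monocytes (ENSMUSG00000035385.5, chromosome 11, 82035571 to 82037453, plus strand), was at 28.4, 37.4, 27.1, 34.5 and 33.6 FPKM after saline and at 40.3, 29.7, 37.8, 36.8 and 32.3 FPKM after StcE. Its samples scattered widely in both groups, with coefficients of variation of 13.5% and 12.1%, beside a counting error of 3.49% at its lowest count of 820 fragments. The means of 32.2 ± 4.33 and 35.4 ± 4.30 FPKM gave a log2 fold change of 0.13 with a 95% interval of -0.0804 to 0.348 (limma adjusted p = 0.410, exact p = 0.262).

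*Cxcl1*, a neutrophil attractant (ENSMUSG00000029380.11, chromosome 5, 90891241 to 90893115, plus strand), was at 6.49, 7.40, 6.41, 5.93 and 6.43 FPKM after saline and at 7.87, 6.16, 7.12, 6.03 and 6.53 FPKM after StcE. The groups overlapped, and StcE replicate 1 was the highest. The means were 6.53 ± 0.536 and 6.74 ± 0.759 FPKM (log2 fold change 0.04, 95% interval -0.110 to 0.184, limma adjusted p = 0.764, exact p = 0.651), and without StcE replicate 1 the fold change was -0.0133.

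*Il6*, the gene of the acute-phase cytokine IL-6 (ENSMUSG00000025746.11, chromosome 5, 30013114 to 30019981, plus strand), was counted 2, 5, 10, 2 and 6 times in the saline samples and 10, 2, 7, 2 and 4 times in the StcE samples. Neither group stood above the other, and 4 of the 10 samples were under the floor of 3 fragments, which for this gene is 0.0353 to 0.0539 FPKM. Summed over each group there were 25 and 25 fragments (95% exact Poisson interval 16.2 to 36.9 each), a ratio per recovered fragment of 0.893 (0.492 to 1.62). In FPKM these were 0.0801 ± 0.0519 and 0.0754 ± 0.0610 (exact p = 0.873), so a difference within that interval was not detectable at this depth, and such intervals cover counting error only.

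*Csf1*, the growth factor on which macrophages and microglia depend (ENSMUSG00000014599.10, chromosome 3, 107741048 to 107760469, minus strand), was at 33.5, 33.5, 32.7, 30.7 and 31.7 FPKM after saline and at 25.7, 28.3, 24.4, 26.6 and 26.5 FPKM after StcE. Every StcE sample was below the lowest saline sample. The mean was 32.4 ± 1.23 FPKM after saline and 26.3 ± 1.41 after StcE, which is -0.29 on the log2 scale (SE 0.0382, 95% interval -0.376 to -0.209) with a limma adjusted p of 6.6e-04, and the call held under 23 of 23 alternatives.

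Most other secreted products of the response were at a low level in these cells after either treatment. Of 17 induced chemokines and cytokines 6 were tested, none was higher, 2 were lower (*Csf1* and *Cx3cl1*) and 4 did not pass, with a median of -0.152, and *Il1b* had no row. Of those tested, none was higher and 2 were lower at an unadjusted limma p under 0.05, and likewise with voom. The share of all genes past the unadjusted cut was not computed. *Cx3cl1*, a chemokine tethered on a mucin-like stalk, fell from 6.77 ± 0.511 to 5.35 ± 0.729 FPKM (log2 fold change -0.29, SE 0.0746, limma adjusted p = 0.0268) with overlapping groups, and its call held in 15 of 23 alternatives. *Ccl5* was at 4.83 and 4.31 FPKM and *Cxcl10* at 2.18 and 1.79 FPKM, neither past the threshold. Among genes under the filter, *Tnf* was counted 1 and 2 times over the saline and StcE samples, *Ccl20* 1 and 0 times, *Csf2* 4 and 5 times and *Il1a* 4 and 9 times. *Csf3* was counted 8 and 20 times (ratio per recovered fragment 2.23, counting interval 0.942 to 5.86, exact p = 0.190). *Ccl7*, a relative of *Ccl2*, had 70 and 129 fragments (ratio per recovered fragment 1.65, counting interval 1.22 to 2.23), yet over samples, at 0.674 ± 0.286 and 1.07 ± 0.351 FPKM, the exact p was 0.0873. *Cxcl5* had 67 and 43 fragments (ratio 0.573, 0.381 to 0.853, exact p = 0.0556), and *Cxcl2* had 69 and 77 (ratio 0.996).

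Among the 54 tested genes of the pathway lists, and on the log2(FPKM + 1) scale, the largest difference in each direction was that of an induced gene of the cell itself. *Ptgs2*, the inducible cyclooxygenase of prostaglandin synthesis, was at 63.0, 59.0, 67.0, 52.8 and 51.5 FPKM after saline and at 76.9, 73.0, 88.5, 74.2 and 86.7 FPKM after StcE. It rose by 36.2% with no overlap between groups (log2 fold change 0.44, SE 0.0781, limma adjusted p = 0.00417). *Vcam1*, an adhesion molecule for leukocytes, was at 6.34, 7.70, 6.48, 5.92 and 6.88 FPKM after saline and at 5.24, 5.22, 4.16, 4.66 and 4.63 FPKM after StcE. It fell by 28.3%, also without overlap (log2 fold change -0.41, SE 0.0670, limma adjusted p = 0.00287). The adhesion molecules *Icam1* (1.91 and 1.77 FPKM), *Sele* (25.2 and 25.3 FPKM) and *Selp* (51.7 and 49.2 FPKM) did not pass. *Sod2* was at 6.55 and 7.01 FPKM and did not pass, while *Saa3* had 1 and 1 fragments and *Lcn2* 2 and 3. *Nos2*, also under the filter, had 53 and 37 fragments (ratio per recovered fragment 0.623, counting interval 0.398 to 0.967, exact p = 0.183). Of these 12 genes 8 were tested, 1 was higher, 1 was lower and 6 did not pass, with a median of -0.0334. At an unadjusted limma p under 0.05, 2 were higher (*Ptgs2* and *Sod2*) and 3 lower (*Vcam1*, *Selp* and *Irf1*). The share of all genes past this cut was not computed. Voom on the recovered fragments called only *Ptgs2* higher and *Vcam1* lower.

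**Figure D4:**
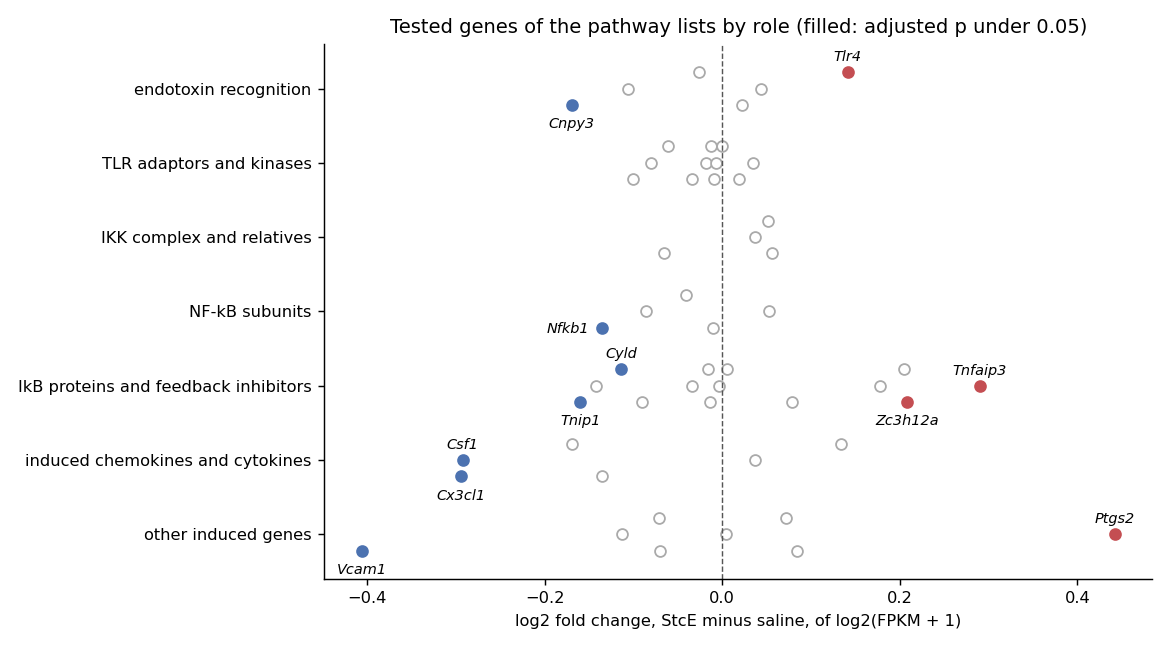
Log2 fold change of StcE against saline, as a difference of log2(FPKM + 1), for the 54 tested genes of 7 lists ordered by role; each point is a gene, and filled, named points have an adjusted p under 0.05 (red higher, blue lower). Named points fall on both sides of 0, from *Vcam1* at -0.41 to *Ptgs2* at 0.44, and the adaptor and IκB kinase lists hold none.

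Over all 7 lists, 74 genes that include the 10, 54 were tested, 4 were higher, 7 were lower and 43 did not pass. That is 20.4% of those tested beside 11.9% of all genes tested, and the median log2 fold change of the 54 was -0.0135. The lists were chosen with earlier results of these data known. With scaling to the same FPKM total 2 were higher and 7 lower.

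After saline, levels per length ran from *Rela* at 51.0 FPKM through *Nfkbia* at 47.8, *Csf1* at 32.4, *Ccl2* at 32.2, *Tlr4* at 19.2, *Nfkb1* at 9.41, *Myd88* at 8.77, *Tnfaip3* at 6.94 and *Cxcl1* at 6.53 down to *Il6* at 0.0801. Neighbours whose sample ranges overlapped were *Rela* and *Nfkbia*, *Csf1* and *Ccl2*, *Nfkb1* and *Myd88*, and *Tnfaip3* and *Cxcl1*, and the other neighbours were separated in every sample. The length that gave whole fragments was that of all exons of a gene merged. For *Nfkb1* it was 12061 bases and for *Tlr4* 5556, beside longest transcripts of 4149 and 4077 bases. The order is thus one of FPKM and not of transcript numbers. After StcE the means of *Rela* and *Nfkbia* were 48.0 and 47.7 FPKM with overlapping ranges. Spread within groups differed between the genes and between the groups. The coefficient of variation after saline was 2.61% for *Myd88*, 2.63% for *Rela*, 3.39% for *Nfkb1*, 3.76% for *Tlr4*, 3.79% for *Csf1* and 4.15% for *Nfkbia*, against 8.21% for *Cxcl1*, 9.99% for *Tnfaip3*, 13.5% for *Ccl2* and 64.8% for *Il6*. After StcE it was 3.04% for *Rela*, 3.35% for *Tlr4*, 3.88% for *Nfkb1*, 4.59% for *Nfkbia*, 5.00% for *Tnfaip3*, 5.35% for *Csf1* and 5.89% for *Myd88*, against 11.3% for *Cxcl1*, 12.1% for *Ccl2* and 80.9% for *Il6*. *Myd88* thus had the lowest value after saline but not after StcE. In both groups *Tlr4*, *Nfkb1* and *Csf1* varied less than the chemokines, for which the intervals above still include changes larger than that of *Tlr4*.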

How the data were processed

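RNA was measured in 10 samples of bEnd.3 cells, 5 given saline and 5 given StcE, and groups were taken from the labels. Per the labels' protocols, libraries were made from poly-A RNA and marked by strand, and by the study's methods they were sequenced in pairs, and trimmed reads were aligned to GRCm38. The submitters' processing notes name HISAT2 2.0.5, featureCounts 1.5.0-p3 and DESeq2 1.32.0. The annotation release and the strand setting of the counting are not given in the sources used here. The deposited table holds FPKM values that the authors computed from their fragment counts, with 49898 rows, of which 22874 carry no gene name and were left out. FPKM are not counts, so limma took the place of the study's DESeq2 test. Values were set to log2(FPKM + 1), genes with a mean of at least 1 FPKM were kept (11062 of 27024), and StcE was compared with saline in limma 3.58.1 (R 4.3.3; eBayes with trend, Benjamini-Hochberg, adjusted p threshold 0.05).

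Whole fragments were recovered from the FPKM steps for 96.6% of values above 0 (tolerance 0.05), and voom on these fragments called 1563 genes against 1320. A floor of 3 fragments on 1 kb is 0.0857 to 0.131 FPKM, and intervals cover counting error only. Every pair of replicates within a treatment was further apart than counting noise allows (chi-square per degree of freedom 3.64 to 11.4), so each sample was counted once. Gene positions came from GENCODE vM21 (GRCm38), promoters from RefSeq (GRCm38.p6), and near copies of each gene were sought with BLAST 2.17.0. Of the 10 only *Myd88* shared sequence with another gene, *Acaa1a*, whose exons overlap it on the opposite strand. The search did not tell such an overlap from a copy elsewhere. All 10 genes were named, and of each pathway list all recognition genes or those past the threshold (up to 6) and the most highly expressed; genes given beyond these were picked with their values in view. The 10 genes and all lists were chosen with earlier results of these data known. Alternatives were other pseudocounts, filters, scalings, variance fits and weights, a replicate block, and leaving out each sample.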

Additional observations from a re-analysis of the deposited data

Results flagged for a closer look

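Among 48 groups of 5 samples (24 named genes in each treatment), 2 held a sample far from the other 4 by Dixon's criterion, where chance gives about 2.4. *Nfkbia* in saline replicate 1 was at 51.3 FPKM while the other saline samples lay between 46.6 and 47.7 FPKM. *Tlr2* in StcE replicate 3 was at 5.11 FPKM while the other StcE samples lay between 5.62 and 5.76 FPKM.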

How the results depend on the processing

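*Tnfaip3*, *Csf1*, *Ptgs2* and *Vcam1* stayed past the threshold in the same direction under 23 of 23 alternatives (limma adjusted p at most 0.0423, 0.0136, 0.0254 and 0.0174), *Tlr4* under 21, *Nfkb1* under 20 and *Rela* under 1. The same replicate numbers did not pair the samples (correlations of their deviations between -0.0966 and 0.0538), and a replicate block over the 8 samples numbered 1, 2, 3 and 5 gave 349 genes (187 higher, 162 lower), 2 of the 10 genes (1 higher, 1 lower) and 4 in the pathway lists (2 higher, 2 lower), with *Tlr4* at 0.15 (limma adjusted p = 0.0587) and *Nfkb1* at -0.12 (limma adjusted p = 0.179). The block also ended the calls of *Cnpy3*, *Cyld*, *Tnip1*, *Zc3h12a* and *Cx3cl1* (limma adjusted p = 0.133, 0.113, 0.140, 0.159 and 0.0938), of which *Tnip1* and *Zc3h12a* were also lost on the 8 samples without it (0.0756 and 0.0790). The 8 samples without the block gave 885 genes (433 higher, 452 lower), 1 lower among the 10 genes, and *Nfkb1* at -0.12 (limma adjusted p = 0.0721). No filter gave 801 genes (392 higher, 409 lower) and ended the calls of *Tnip1* (limma adjusted p = 0.0579), *Zc3h12a* (0.103) and *Cx3cl1* (0.0897). Scaling to the same FPKM total gave 790 genes (272 higher, 518 lower, against 611 and 709), 1 higher among the 10 genes, 2 higher in the pathway lists and *Tlr4* at 0.13 (limma adjusted p = 0.125); this total follows *Gm23935*, which held 9.45 to 17.7% of it, and the median fold change moved to -0.0112. *Myd88* changed sign with scaling by the upper quartile (0.0041), the median ratio (0.0019) or total fragments (0.0084), with the block and its 8 samples (0.0080 each) and with voom (3.8e-05). *Nfkbia* did so with the upper quartile (0.0010), total fragments (0.0057) and voom (0.0022). *Ly96* did so with array weights (-0.0040), the block and its 8 samples (-0.062 each), and *Lbp* with the block and its 8 samples (-0.019 each). Scaling by total fragments and voom were added after the data were seen.

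With 1 sample left out, 793 to 1255 genes passed (384 to 588 higher, 409 to 667 lower), fewest without StcE replicate 3 and next without saline replicate 1 (838), and in these 10 fits 3 to 5 of the 10 genes (2 to 2 higher, 1 to 3 lower) and 8 to 13 of the pathway lists (3 to 4 higher, 5 to 9 lower). The log2 fold changes ran from 0.126 to 0.159 for *Tlr4*, -0.0191 to 0.0308 for *Myd88*, -0.152 to -0.119 for *Nfkb1*, -0.0975 to -0.0697 for *Rela*, -0.0272 to 0.0213 for *Nfkbia*, 0.250 to 0.328 for *Tnfaip3*, 0.0757 to 0.193 for *Ccl2*, -0.0133 to 0.0772 for *Cxcl1*, -0.318 to -0.267 for *Csf1*, -0.0241 to 0.0989 for *Ly96*, -0.0308 to 0.0654 for *Lbp*, and the differences from -0.0392 to 0.0176 for *Il6* and -0.0670 to 0.0376 for *Cd14*. The causes of these changes were not tested. Depth limits *Il6*, *Tnf* and the other induced genes near the floor.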
